A study of Mus musculus with 6 samples.

Results

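The genes described here are the transcriptional effectors of the Hippo pathway and a set of their feedback targets: the coactivator genes Yap1 and Wwtr1 (which encodes TAZ), the DNA-binding partner genes Tead1, Tead2, Tead3 and Tead4, and the feedback or target genes Lats2, Amotl2, Ajuba and Ankrd1. They were chosen by gene symbol, and all 10 are among the 15063 genes listed in the expression tables and among the 11085 that passed the filter on low values (1 RPKM or more in 3 or more libraries). RNA-seq was performed on bone marrow mesenchymal stem cells (MSCs), cultured stromal cells that can form bone, cartilage and fat, from 3-week-old mice. There were 3 wild-type (WT) libraries and 3 libraries with a conditional knockout of Mapk7 (CKO), the gene for the MAP kinase ERK5. Cells were at passage 5, except those of WT library 2, which were at passage 7 and carry the animal label of WT library 1 in the descriptions. The Cre driver is not given in the sources used here. All cells were untreated and grown in the same medium, α-MEM with serum. WT library 3 carries animal number 3 in its description and 2 in the header of its values, and the genotype is WT in both. WT libraries 1 and 2 may thus not be independent, yet the main fit and each n = 3 for WT count them as separate libraries. The labels do not settle whether the other libraries of a genotype came from separate animals. P-values therefore reflect the spread among these libraries, which may in part be technical.

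In the Hippo pathway, MST kinases activate LATS kinases, which phosphorylate YAP and TAZ. This keeps YAP and TAZ in the cytoplasm and marks them for degradation. Unphosphorylated YAP and TAZ enter the nucleus, bind TEAD proteins and switch on genes of growth, adhesion and the cytoskeleton, among them negative regulators of the pathway itself. In MSCs YAP and TAZ respond to the stiffness of the substrate and to cell shape, and TAZ is known as a coactivator of RUNX2 and a repressor of PPARγ. Transcript levels of these genes do not report the phosphorylation or location of the proteins.

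TEAD proteins bind a short element known as MCAT, whose core is GGAATG. On the opposite strand the core reads CATTCC. RefSeq promoter windows (build GRCm38.p6, 250 bases before to 50 after the start of a gene) matched 8 of the 10 genes by symbol. The core, searched on both strands, was present in a window of 7 of these 8 genes and in 14.7% of all 32851 windows, or in 16.6% of 27025 gene symbols when any window of a gene counted. Sequences of Ankrd1 and Amotl2 are given in full. They were chosen because, among Lats2, Amotl2, Ajuba and Ankrd1, their mean levels lay farthest apart between genotypes, in opposite directions. Each line holds the 250 bases before the start, 5′ to 3′ in the direction of the gene, with the TEAD core in capitals. Ankrd1 lies on the minus strand (chr19:36119845-36120094) and Amotl2 on the plus strand (chr9:102717554-102717803).
Ankrd1: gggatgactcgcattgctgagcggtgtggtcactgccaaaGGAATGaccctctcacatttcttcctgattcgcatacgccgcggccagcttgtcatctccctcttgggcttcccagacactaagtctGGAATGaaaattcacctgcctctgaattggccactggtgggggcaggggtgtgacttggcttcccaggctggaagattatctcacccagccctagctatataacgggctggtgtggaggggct
Amotl2: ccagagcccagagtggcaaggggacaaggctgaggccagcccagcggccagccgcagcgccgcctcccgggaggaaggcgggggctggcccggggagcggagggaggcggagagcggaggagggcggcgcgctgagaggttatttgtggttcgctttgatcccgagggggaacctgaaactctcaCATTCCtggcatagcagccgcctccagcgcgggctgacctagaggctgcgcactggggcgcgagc

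Ankrd1 holds the core at 210 and 123 bases before its start, and Amotl2 holds it at 65 bases before its start. Shorter stretches of 20 bases around the core, again with the core in capitals, show the coactivator genes and Ajuba, whose own windows also hold it. Yap1 (minus strand, chr9:8004725-8004744) has it at 141 bases before the start, and Wwtr1 (minus strand, chr3:57576034-57576053) at 136 or 170 bases before the start, depending on the window. Ajuba (minus strand) has it at 186 (chr14:54577835-54577854) and 164 bases (chr14:54577813-54577832) before the start.
Yap1: gtctgcaGGAATGtagcgac
Wwtr1: actcaaaGGAATGcagatag
Ajuba, distal: atggataCATTCCacagtgc
Ajuba, proximal: ctccgcgCATTCCaactgta

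Of the other genes, Tead3 and Lats2 hold the core in at least 1 of their windows, and the window of Tead2 holds none. These matches are descriptions of sequence and no measure of binding.

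Library totals recovered from the values were 17351907 to 20689481 reads. WT library 2 stood apart: 10 proliferation genes lay between 0.235 and 3.99 RPKM (reads scaled to gene length and library total) there and between 7.31 and 57.1 RPKM in the other 5 libraries. Of 10 stromal markers, the collagen gene Col1a1 was at 1126 RPKM or more in each library, and Lepr, a receptor gene of marrow stroma in vivo, was at 0.311 RPKM or lower and not tested. None of the other 9 passed the test. Of these 9, 7 lay below and 2 above 0, with a median log2 difference of -0.72. The 2 above 0, Thy1 (log2 difference 0.40) and Nt5e (0.50), overlapped between genotypes. Pdgfra, Pdgfrb, Ly6a and Cxcl12 (4 of the 9) were lower in each CKO library, beside 9.18% of all tested genes, with Pdgfra at 14.1 to 32.3 RPKM in WT and 1.01 to 10.9 RPKM in CKO. The part of these stromal levels in the results below was not tested. The 6 endothelial markers were all under 1 RPKM. Macrophage transcripts were present in both genotypes, with the 12 markers summing to 772 to 2082 RPKM in WT and 404 to 3306 RPKM in CKO. Most of each sum came from Lyz2, at 321 to 2948 RPKM. No other macrophage marker exceeded 131.6 RPKM (C1qb in WT library 3). In these bulk cultures fewer cells of a type and less RNA per cell cannot be told apart. Values of single libraries are given below in the order 1 to 3 within each genotype. Mapk7 was at 7.12, 6.76 and 9.07 RPKM (WT) against 5.59, 3.84 and 5.45 RPKM (CKO), lower in each CKO library but not absent (limma adjusted p = 0.505). Klf2 and Klf4, transcription factor genes induced by ERK5, had WT means of 48.3 ± 21.6 and 12.6 ± 0.997 RPKM and CKO means of 2.37 ± 0.942 and 4.72 ± 2.41 RPKM (SD, n = 3). Neither passed the test (limma adjusted p = 0.0765 for Klf2 and 0.277 for Klf4).

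None of the 10 genes passed the genotype test (limma on log2(RPKM + 1), Benjamini-Hochberg adjustment over all tested genes, threshold 0.05), where 0.00902% of all tested genes passed, which is 1 gene. The lowest adjusted p among the 10 was 0.303, for Tead2. By level, Yap1 and Tead2 exceeded their highest WT value in all 3 CKO libraries, and Amotl2 lay below its lowest WT value in all 3. These 3 of 10 genes without overlap stand beside 16.7% of all tested genes (7.51% with CKO above and 9.18% with CKO below). At an unadjusted p under 0.05, 2 of the 10 genes differed, both higher in CKO, beside 9.74% of all tested genes in either direction (3.36% higher and 6.39% lower in CKO). With 10 genes the shares are coarse, and nothing particular to them is read from these counts. Leaving out WT library 2 left Yap1, Tead2 and Amotl2 without overlap and added Tead4, while 20.7% of all tested genes did not overlap. Without CKO library 1 the count was 5, with Lats2 and Ankrd1 added, and 27.2% of all tested genes did not overlap then. The count was 4 without WT library 3 (Lats2 added, 22.6% of all tested genes) and 4 without CKO library 3 (Tead3 added, 25.9%), and it stayed at 3 without WT library 1 (32.8%) or CKO library 2 (33.8%).

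**Figure D1:**
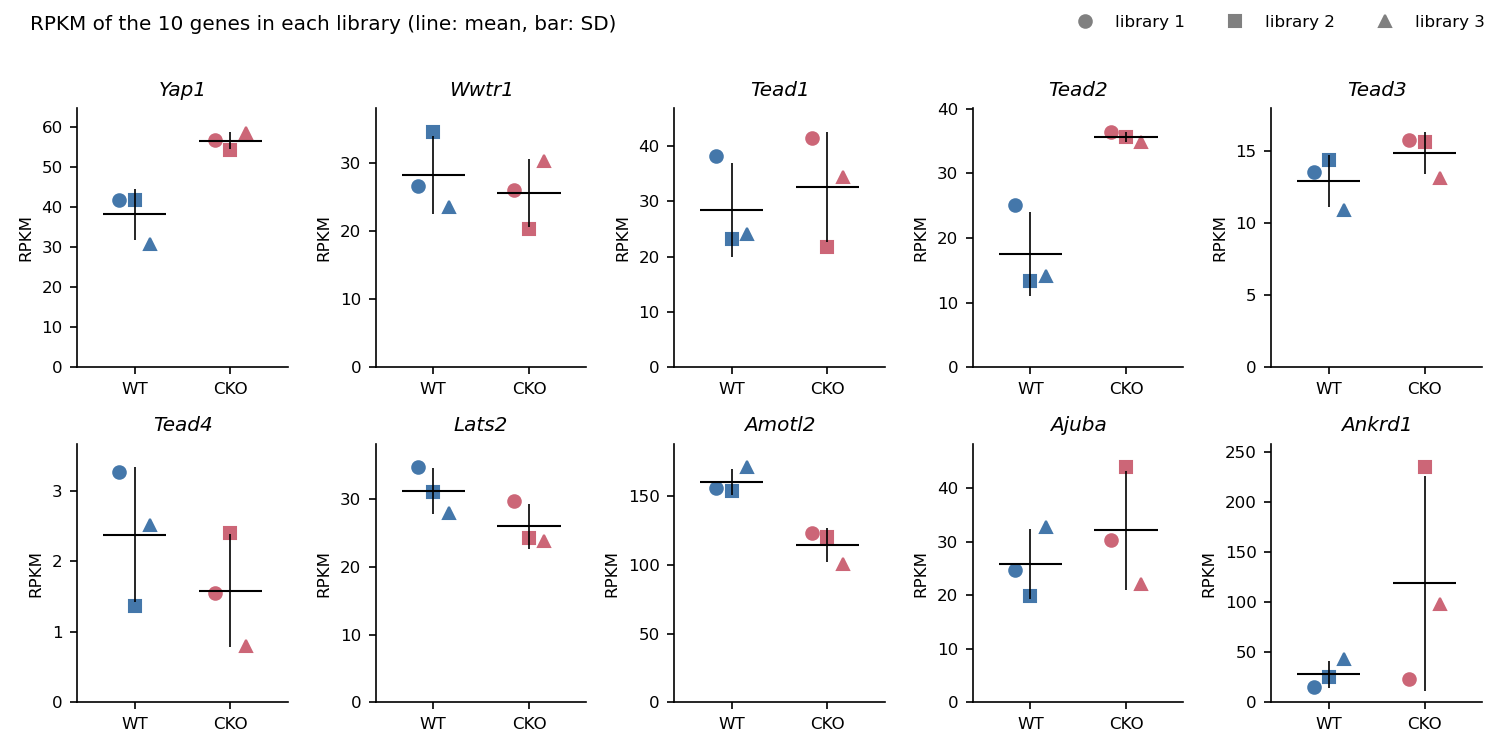
RPKM (vertical axes, from 0) of each of the 10 genes in the 3 WT and 3 CKO libraries, with symbols for the library number, a line for the mean and a bar for the SD. Yap1 and Tead2 lie higher in all CKO libraries and Amotl2 lower, while the CKO values of Ankrd1 run from 23.5 to 234.5 RPKM.

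Of the coactivator genes, Yap1 was higher in each CKO library, while the values of Wwtr1 overlapped. Yap1 was at 41.8, 41.8 and 30.8 RPKM (WT) against 56.8, 54.3 and 58.6 RPKM (CKO). The CKO libraries were close to each other, and the lowest of them exceeded the highest WT library. The means were 38.1 ± 6.33 RPKM (WT) and 56.6 ± 2.15 RPKM (CKO; SD, n = 3), a ratio of 1.48. The log2 difference was 0.57 (SE 0.22, 95% interval 0.06 to 1.08, limma adjusted p = 0.463), higher in 3 of 3 CKO libraries. Without WT library 2 it was 0.64, and without WT library 3, the lowest of the WT libraries, it was 0.43.

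Wwtr1 was at 26.7, 34.6 and 23.5 RPKM (WT) against 26.0, 20.3 and 30.3 RPKM (CKO). The groups overlapped, with the highest value in WT library 2 and the lowest in CKO library 2. The log2 difference was -0.14 (SE 0.24, limma adjusted p = 0.863), and its 95% interval of -0.71 to 0.43 leaves room for a change in either direction. It was 0.01 without WT library 2 and also 0.01 without CKO library 2, so its sign rests on those libraries.

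Since RPKM is scaled to gene length, levels of the coactivator genes can be set side by side. The ratio of Yap1 to Wwtr1 in RPKM was 1.57, 1.21 and 1.31 (WT) against 2.18, 2.67 and 1.93 (CKO). Yap1 was the more abundant transcript in all 6 libraries, and each CKO ratio exceeded the largest WT ratio. The summed RPKM of Yap1 and Wwtr1 overlapped between genotypes, at 54.3 to 76.4 in WT and 74.6 to 88.9 in CKO. These ratios and sums restate the levels above and were not tested.

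Among the DNA-binding partners, Tead2 had the lowest p of the 10 genes. Tead2, known for its expression in embryonic and progenitor tissues, was at 25.1, 13.4 and 14.1 RPKM (WT) against 36.4, 35.6 and 34.8 RPKM (CKO). WT library 1 lay between the other WT libraries and the CKO libraries, which were nearly equal. The means were 17.5 ± 6.57 RPKM (WT) and 35.6 ± 0.795 RPKM (CKO; SD, n = 3), a ratio of 2.03. The log2 difference was 1.04 (SE 0.27, 95% interval 0.41 to 1.67, unadjusted p = 0.00570, limma adjusted p = 0.303). Without WT library 2 it was 0.88, and with any 1 library left out it ran from 0.88 to 1.31. Proliferation genes were lowest in WT library 2, where Tead2 was lowest too, and the 10 genes summed to 305.2, 13.8 and 169.5 RPKM (WT) against 322.2, 246.0 and 131.9 RPKM (CKO). Their part in the Tead2 values was not tested.

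Tead1, the broadly expressed paralogue, was at 38.3, 23.1 and 24.1 RPKM (WT) against 41.5, 21.8 and 34.4 RPKM (CKO). It was highest in library 1 of each genotype and lowest in CKO library 2, and the groups overlapped (log2 difference 0.18, SE 0.31, 95% interval -0.56 to 0.91, limma adjusted p = 0.866). Without CKO library 1 the difference was -0.02, and without CKO library 2 it was 0.43. Tead3 was at 13.5, 14.4 and 10.9 RPKM (WT) against 15.8, 15.6 and 13.2 RPKM (CKO), and CKO library 3 fell within the WT range. Its log2 difference was 0.19 (SE 0.20, limma adjusted p = 0.765), and 0.08 without WT library 3. Tead4, best known from the trophectoderm of the embryo and from muscle, was the least abundant, at 3.26, 1.37 and 2.51 RPKM (WT) against 1.54, 2.40 and 0.806 RPKM (CKO). Its values rest on 44 to 174 recovered reads per library, and the groups overlapped (log2 difference -0.39, SE 0.33, limma adjusted p = 0.710). With 1 library left out it ran from -0.63 without WT library 2 to -0.16 without CKO library 3.

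The share of Tead2 among TEAD transcripts was larger in each CKO library. Tead2 made up 31.3, 25.6 and 27.3% of the summed TEAD RPKM in WT, against 38.2, 47.2 and 41.9% in CKO. Tead1 was the leading TEAD transcript in each WT library and in CKO library 1 (43.6% against 38.2% for Tead2), and Tead2 led in CKO libraries 2 and 3, narrowly in the latter (41.9 against 41.4% for Tead1). Tead3 held 16.9 to 27.5% in WT and 15.8 to 20.7% in CKO, and Tead4 under 5% in each library. The sum over the 4 genes was 61.4 ± 16.3 RPKM (WT) and 84.7 ± 9.99 RPKM (CKO; SD, n = 3), with WT library 1 (80.2 RPKM) inside the CKO range. With 1 library left out, the difference in mean share (CKO minus WT) ran from 12.0 to 16.5 percentage points for Tead2, against 14.4 with all libraries. For Tead1 it was -8.3 points with all libraries and -3.7 without CKO library 2, and for Tead3 -4.2 and, without WT library 2, -1.3. The shares were not tested.

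**Figure D2:**
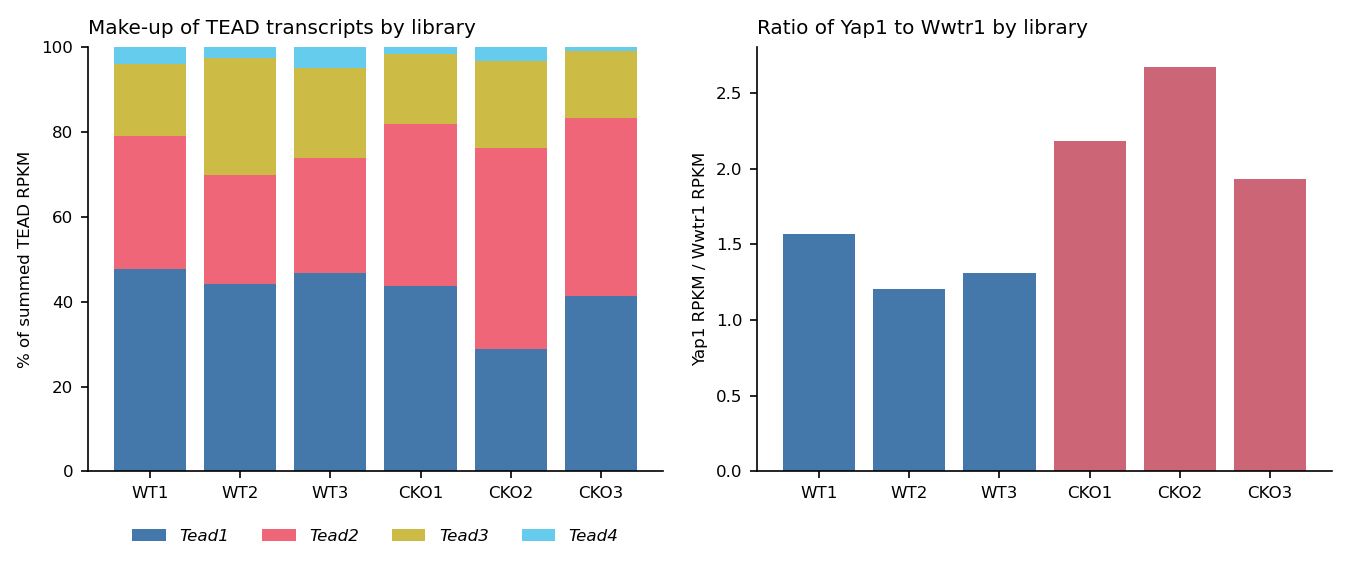
Left, share of each TEAD gene in the summed TEAD RPKM (vertical axis, percent) for each library as stacked bars. Right, ratio of Yap1 to Wwtr1 RPKM for each library. The Tead2 share is 25.6 to 31.3% in WT and 38.2 to 47.2% in CKO, and the ratio is 1.21 to 1.57 in WT and 1.93 to 2.67 in CKO.

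Of the feedback genes, Amotl2 and Lats2 had lower means in CKO and Ajuba a higher mean, and the values of Lats2 and Ajuba overlapped. Amotl2 encodes an angiomotin-like protein that holds YAP at cell junctions and is itself a target of YAP. It was at 155.9, 153.8 and 171.0 RPKM (WT) against 123.2, 120.2 and 100.3 RPKM (CKO). The highest CKO library lay below the lowest WT library. The means were 160.2 ± 9.38 RPKM (WT) and 114.6 ± 12.5 RPKM (CKO; SD, n = 3), a WT to CKO ratio of 1.40. The log2 difference was -0.48 (SE 0.24, 95% interval -1.04 to 0.07, limma adjusted p = 0.568), lower in 3 of 3 CKO libraries, and -0.51 without WT library 2.

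Lats2, the gene of the kinase that phosphorylates YAP and TAZ, was at 34.8, 31.0 and 27.9 RPKM (WT) against 29.8, 24.4 and 23.8 RPKM (CKO). Only CKO library 1 reached into the WT range. The log2 difference was -0.26 (SE 0.20, 95% interval -0.74 to 0.22, limma adjusted p = 0.694). Ajuba encodes a LIM protein that binds LATS kinases and limits their activity. It was at 24.8, 19.8 and 32.8 RPKM (WT) against 30.3, 43.9 and 22.0 RPKM (CKO), with overlap, the highest value in CKO library 2 and a log2 difference of 0.28 (SE 0.31, 95% interval -0.45 to 1.00, limma adjusted p = 0.774). Without CKO library 2 that difference was 0.03, and without CKO library 3 it was 0.51.

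Ankrd1 had the largest log2 difference of the 10 genes and the largest spread. Ankrd1 encodes a stretch-responsive ankyrin repeat protein of muscle and is a standard readout of YAP and TAZ. It was at 15.8, 24.9 and 42.8 RPKM (WT) against 23.5, 234.5 and 98.0 RPKM (CKO). CKO libraries 2 and 3 exceeded all WT libraries, and CKO library 1 fell inside the WT range. The means were 27.8 ± 13.8 RPKM (WT) and 118.7 ± 107.0 RPKM (CKO; SD, n = 3). The log2 difference was 1.64 (SE 0.80, 95% interval -0.26 to 3.53, limma adjusted p = 0.568). It was 0.88 without CKO library 2, 2.52 without CKO library 1 and 1.61 without WT library 2. The summed level of 8 smooth muscle and contractile genes, most of it from Acta2 and Tagln, was also highest in CKO library 2. It was 3301, 1047 and 3357 RPKM (WT) against 3910, 9504 and 4518 RPKM (CKO), so the low WT value is that of WT library 2 alone. None of these 8 passed the test. Of them 5 lay higher in each CKO library, beside 7.51% of all tested genes, and their part in the Ankrd1 values was not tested. Of 8 skeletal and cardiac muscle markers 7 are listed and 2, Acta1 and Ckm, were tested, and neither passed. Acta1 was at 20.8, 0.154 and 23.2 RPKM (WT) against 12.8, 63.9 and 25.2 RPKM (CKO), and Ckm at 6.76, 0 and 3.10 RPKM (WT) against 4.55, 0 and 0.119 RPKM (CKO). Of the other 5, Tnnt2 reached 2.63 RPKM in CKO library 2, Actc1 1.97 and Myog 1.03 RPKM in CKO library 3, and Myh3 and Ttn stayed under 1 RPKM. Myog was at 0 in 5 libraries.

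**Figure D3:**
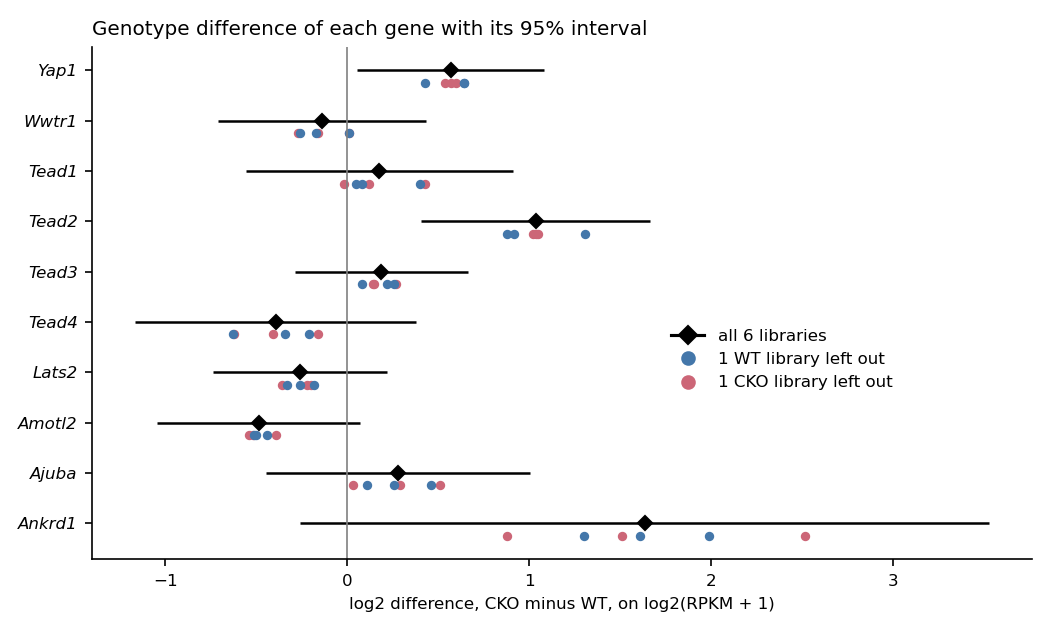
Log2 difference (horizontal axis, CKO minus WT on log2(RPKM + 1)) of each gene, with diamonds and bars for the fit to all 6 libraries and its 95% interval, and dots for fits with 1 library left out. In each fit Yap1, Tead2, Tead3, Ajuba and Ankrd1 stay above 0, and Amotl2, Lats2 and Tead4 stay below 0. Wwtr1 and Tead1 change sign, and Ankrd1 runs from 0.88 to 2.52.

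By median RPKM over the 6 libraries the order was Amotl2 (138.5), Yap1 (48.0), Ankrd1 (33.9), Tead2 (30.0), Tead1 (29.2), Lats2 (28.9), Ajuba (27.6), Wwtr1 (26.4), Tead3 (14.0) and Tead4 (1.97). Amotl2 exceeded Yap1 in each library, since its lowest value (100.3 RPKM) was above the highest of Yap1 (58.6 RPKM). Yap1 and Ankrd1 overlapped in range, as did the genes from Ankrd1 to Wwtr1, and they are not ordered beyond their spread. Tead3 lay at 10.9 to 15.8 RPKM, which overlaps the range of Tead2 and just reaches that of Ankrd1. It exceeded Tead2 in WT library 2 (14.4 against 13.4 RPKM). Tead4 was below Tead3 in each library.

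The kinases, scaffolds and cadherins upstream of YAP overlapped between genotypes for all tested genes but 1. Of 21 genes in this list 20 were tested and none passed. 9 lay above and 11 below 0, with a median log2 difference of -0.09, beside 0.03 for all tested genes. Of the 20, 1 did not overlap between genotypes, beside 16.7% of all tested genes (9.18% with CKO below). Sav1, the scaffold of the MST kinases, was the 1 gene without overlap, at 46.0, 53.2 and 44.6 RPKM (WT) against 31.1, 21.1 and 33.3 RPKM (CKO; log2 difference -0.75, SE 0.24, limma adjusted p = 0.375). Fat4, a giant cadherin gene, was at 18.0, 37.4 and 13.5 RPKM (WT) against 19.3, 2.78 and 3.39 RPKM (CKO), so CKO library 1 lay within the WT range (limma adjusted p = 0.507). Ptpn14, a phosphatase gene that is also a target of YAP, averaged 21.0 ± 9.68 and 12.1 ± 5.08 RPKM (SD, n = 3), and Nf2, the merlin gene, 24.9 ± 11.0 and 16.2 ± 2.76 RPKM (SD, n = 3), both with overlap. WT library 2 raised both WT means. Ptpn14 was at 31.9 RPKM there and at 7.60 to 17.6 RPKM in the other libraries, and Nf2 at 37.4 against 13.8 to 20.5 RPKM. The TEAD cofactor gene Vgll3 was at 51.3 ± 2.09 RPKM (WT) and 51.2 ± 4.26 RPKM (CKO; SD, n = 3), with a 95% interval of its log2 difference from -0.48 to 0.47. Vgll4, a TEAD corepressor gene, averaged 4.30 ± 0.443 and 3.44 ± 0.615 RPKM (SD, n = 3). Neither of these 2 passed.

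Other established YAP and TAZ targets lay on both sides of 0. All 19 were tested and none passed. 11 lay above and 8 below 0 (median log2 difference 0.15, beside 0.03 for all tested genes), and 3 did not overlap between genotypes, 2 higher and 1 lower in CKO, beside 16.7% of all tested genes. The matricellular genes Ccn1 and Ccn2, the most used readouts, both overlapped. Ccn1 was at 753, 857 and 885 RPKM (WT) against 728, 869 and 414 RPKM (CKO; log2 difference -0.37, SE 0.38, limma adjusted p = 0.749). Ccn2 was at 481, 1446 and 571 RPKM (WT) against 539, 1585 and 634.5 RPKM (CKO; log2 difference 0.15, SE 0.58, limma adjusted p = 0.945). Ccn2 was high in library 2 of each genotype.

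Axl, a receptor tyrosine kinase gene, was at 98.0, 42.0 and 72.3 RPKM (WT) against 87.3, 157.4 and 151.6 RPKM (CKO), overlapping through CKO library 1 (limma adjusted p = 0.507). F3, the tissue factor gene, was higher in each CKO library, at 135.2, 28.6 and 114.2 RPKM (WT) against 210.8, 421.7 and 543.3 RPKM (CKO; log2 difference 2.24, SE 0.64, limma adjusted p = 0.330). Ccdc80, a secreted matrix protein gene, was lower in each CKO library, at 411, 854 and 676 RPKM (WT) against 274, 340 and 96.8 RPKM (CKO; log2 difference -1.57, SE 0.54, limma adjusted p = 0.400). Fjx1 averaged 3.52 ± 2.43 RPKM (WT) and 7.31 ± 2.28 RPKM (CKO; SD, n = 3), with overlap. Gadd45a, a stress response gene named after its values were seen, was the remaining gene without overlap, at 21.3 to 33.5 RPKM in WT and 35.0 to 83.6 RPKM in CKO.

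**Figure D4:**
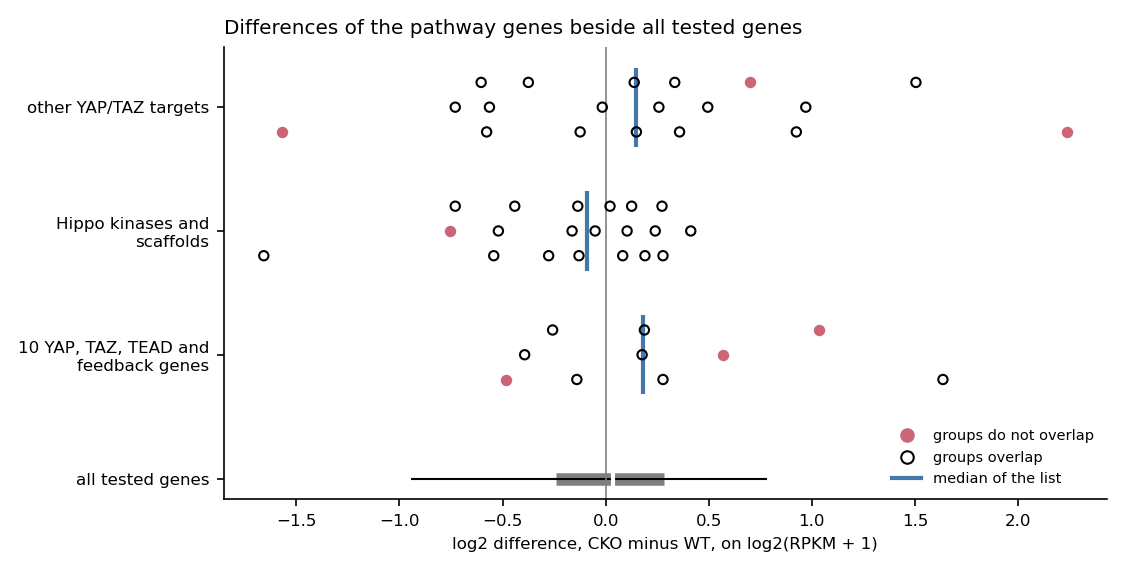
Log2 difference (horizontal axis, CKO minus WT on log2(RPKM + 1)) of the tested genes of 3 lists, with filled points where the genotypes do not overlap and a line at each list's median. The bar for all tested genes spans the 25th to 75th percentile (-0.24 to 0.28) and its thin line the 5th to 95th (-0.94 to 0.78), and Ptpn14 is in both the kinase and the target list.

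The genes most like Yap1, Wwtr1 and Ankrd1 across the 6 libraries were found by the mean absolute difference in log2(RPKM + 1), each gene centred on its own mean. For Yap1 they were Ccdc136 (0.057), Mrvi1 (0.067) and Paqr8 (0.079), all between 0.710 and 4.42 RPKM and so far below Yap1 in level. For Wwtr1 they were Cdkl3 (0.029), Lpin2 (0.030) and Wdcp (0.032), all between 0.590 and 2.04 RPKM. For Ankrd1 the closest were AA467197 (0.380), Irgm1 (0.408) and Tmem37 (0.516), and all 3 shared the high values of CKO libraries 2 and 3. Irgm1 was at 15.8, 18.6 and 25.3 RPKM (WT) against 11.8, 85.5 and 81.2 RPKM (CKO). These distances describe likeness over 6 libraries, favour genes of small spread, and carry no test. The scale understates the change of low genes, so a small distance does not mean an equal fold change.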

How the data were processed

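Values were deposited by the authors as RPKM, that is, as reads divided by gene length and library total; the headers name them only as expression, and the unit comes from the numbers themselves. Assuming an integer total for each library and an integer length for each gene, 15062 of 15063 genes (99.99%) returned whole reads, to within 0.01 read or a relative 1e-07, and 0 of 500 shuffled genes did. Submitters' processing notes name mm9. No source used here gives the aligner, counting tool, annotation or strand setting, so overlapping or antisense genes may share reads. RefSeq promoter sequences, of build GRCm38.p6, were matched by symbol.

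Groups came from sample titles, and each library's values from the file deposited for that sample. Genotype was tested with limma 3.58.1 (R 4.3.3, trended, robust moderation, no other covariate, no further scaling) on log2(RPKM + 1), two-sided. This scale understates the change of low genes. The script was tested on simulated data with independent noise in each library. Such data do not cover a dependence between WT libraries 1 and 2. An exact permutation test of 3 against 3 cannot go below p = 0.1. Members, lists and alternatives were chosen with earlier results of these data known. Genes named are the 10 members, Mapk7, Klf2, Klf4, up to 4 genes per pathway list with the lowest p, Ccn1, Ccn2, Axl, and the 3 closest patterns to Yap1, Wwtr1 and Ankrd1; marker genes are named as checks. Alternatives were other scalings, filters, a pseudocount of 0.1, plain limma, leaving out each library, merging WT libraries 1 and 2, a replicate block and limma-voom on recovered reads.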

Additional observations from a re-analysis of the deposited data

How the results depend on the processing

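None of the 10 genes, and none of the genes of the 3 pathway lists, passed the threshold in the fit to all libraries or under any of the 15 alternatives run. Over the 149 values of single members under an alternative, 146 kept their direction. With 1 library left out, Wwtr1 ran from -0.27 to 0.01 and turned sign without library 2 of either genotype, and Tead1 ran from -0.02 to 0.43 and turned sign without CKO library 1. Tead4 was below the filter at RPKM 5 and has no value there. With WT libraries 1 and 2 averaged, the log2 difference was 0.64 for Yap1, 1.1 for Tead2 (limma adjusted p = 0.121) and -0.51 for Amotl2. The number of genes past the threshold among all tested was 1, and it was 2 after median centring or quantile normalization, 4 with the filter at RPKM 5, 50 with WT libraries 1 and 2 averaged, and 0 without a filter (1399 at an unadjusted p under 0.05), with a pseudocount of 0.1 (1059), or with limma-voom on recovered reads (1000). With 1 library left out it ran from 0 to 24: dropping WT library 1 gave 24, CKO library 1 gave 17, CKO library 2 gave 1, and WT library 2 (642 at an unadjusted p under 0.05), WT library 3 (665) or CKO library 3 (800) gave 0 in limma. The count of members without overlap, for which leaving out libraries was chosen after seeing the data, ran from 3 to 5, beside 20.7 to 33.8% of all tested genes. The differences in TEAD shares and in the Yap1 to Wwtr1 ratio kept their direction with any 1 library left out, and the ratio difference ran from 0.70 to 1.06, against 0.90 with all libraries. The cause of these changes was not tested.

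With the replicate number as a block 0 genes passed (1123 at an unadjusted p under 0.05), and none of the 10. Deviations of same-numbered WT and CKO libraries correlated at 0.198, 0.0145 and -0.0192 for numbers 1 to 3. Those of unlike-numbered libraries correlated at -0.23 to 0.206. With 3 libraries per genotype these values cannot show whether same-numbered libraries belong together. The labels do not say that a number pairs libraries, so the pairing is not used in the main fit. The lowest recovered read number among the 10 genes was 44, for Tead4, which limits the precision of that gene by counting error alone.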

Other observations

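Dchs1, the gene of the cadherin that pairs with Fat4, was below the filter and not tested. It was at 0.386, 0.839 and 0.234 RPKM in WT libraries 1 to 3 and at 5.69, 0.282 and 3.59 RPKM in CKO libraries 1 to 3, so CKO libraries 1 and 3 were above all WT libraries and CKO library 2 was not. Of the YAP target list, Igfbp3 reached 63.7 RPKM in CKO library 3 and stayed at 0.613 to 4.16 RPKM in the other 5 libraries. Mob1a, the gene of a LATS kinase cofactor, was at 11.5 RPKM in CKO library 2 and at 38.2 to 54.2 RPKM in the other 5 libraries, and its paralogue Mob1b was lowest there too, at 2.15 RPKM against 4.09 to 9.47 RPKM. Igfbp3, Mob1a and Mob1b were chosen on these values.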
